A study of Mus musculus with 6 samples.

Results

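Host transcripts of small RNAs, 10 by name, were examined in macrophages of Lewis lung carcinoma tumors. A host transcript is a long RNA whose exons or introns carry the hairpin of a microRNA or the sequence of a small nucleolar RNA (snoRNA). The listed transcripts were the microRNA hosts Mir17hg, Mir155hg, Mir22hg and Mir142hg and the snoRNA hosts Snhg1, Snhg3, Snhg5, Snhg8, Snhg12 and Gas5. They were chosen by name with earlier results of these same libraries known, the difference between the groups included, so that their differences are given below as a description, with no test. Of the 10 names, 9 matched a row of the 22377 in the count table, 3 microRNA hosts and all 6 snoRNA hosts. Mir142hg was not analysed here, since no row carried that name. All 9 passed the filter on low counts, as did 13884 genes in the whole table.

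The 6 libraries comprised 3 labelled wt and 3 labelled ko, the latter also described as knockdown. In the study the RNA sequencing groups were Npm1+/+ mice and Npm1+/- mice, in which the whole mouse, and not macrophages alone, is heterozygous for the loss of Npm1. All carried subcutaneous tumors of the implanted LLC line, and the methods give male and female animals for the Npm1+/- tumor model. A legend for these data gives fewer mice in a group than there are libraries, so that libraries may share an animal, and n below counts libraries. The methods describe CD45+ CD11b+ F4/80+ macrophages sorted from the tumors and SMARTer Ultra Low Input cDNA, whereas the labels give tumor tissue and a library enriched for small RNA. Of the ids in the count table, 0 had the name form of a microRNA hairpin or of a single snoRNA (Snord, Snora or Scarna with a number). Gm ids, which the annotation gives to some snoRNAs of Snhg1 and Gas5, were not searched. Each host value below is for the long host RNA and not for the small RNA released from it.

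Total counts were between 36550775 and 38147320 per library. Levels are given in CPM, counts scaled to library size, where 3 counts amount to 0.0716 to 0.0846 CPM. All 12 macrophage markers had lower estimates in the libraries labelled ko (median log2 fold change -0.53). Of these, 7, such as Csf1r, were lower without overlap between the groups, as were 12.6% of all genes tested. All 8 neutrophil markers also had lower estimates (median -0.80), 5 of them without overlap. In bulk RNA, fewer cells of a type and less RNA per cell cannot be told apart. The T cell markers were low but present, with a summed level of 32.3 to 118 CPM in wt and 94.6 to 262 in libraries labelled ko. The summed fibroblast markers ran from 44.4 to 503 CPM in wt and from 375 to 722 in libraries labelled ko. Col3a1 alone was at 19.0, 426 and 245 CPM in wt and 604, 474 and 308 in the libraries labelled ko. Col1a1 had means of only 0.995 and 3.52 CPM. Of the 10 fibroblast markers, 9 had a positive estimate, while Acta2 was lower in the libraries labelled ko without overlap. Of 4 carcinoma markers tested, 2 had a positive estimate. The most abundant of them, Krt8, was at 9.90, 117 and 59.1 CPM in wt and 171, 165 and 105 in libraries labelled ko. The level of Npm1, the targeted gene, was 142, 380.2 and 381 CPM in wt replicates 1, 2 and 3 and 441, 499 and 343 in the libraries labelled ko, so that it was not lower in the latter and each direction below is one between labels. On the first principal component, which held 67.99% of the variance, wt replicate 1 lay at -108 and the other libraries between -4.54 and 52.0. For 14 of 30 other genes examined beside the hosts, leaving out wt replicate 1 moved the log2 fold change by over 1.5 times, and that of Npm1 went from 0.51 to 0.16.

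MicroRNAs are short RNAs that are cut from a hairpin in a longer transcript, first by Drosha with Dgcr8 and then by Dicer1, and that guide Argonaute proteins to messenger RNAs through pairing of their seed. The host can be a non-coding transcript whose only known product is the hairpin. SnoRNAs guide the chemical modification and processing of ribosomal RNA, and in mammals most are trimmed from the introns of host genes after splicing. Several snoRNA hosts belong to the terminal oligopyrimidine class together with the ribosomal proteins, and the spliced Gas5 RNA is a classical substrate of nonsense-mediated decay, so that its level responds to translation and growth state.

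The mature sequences below are those of the microRNAs encoded by the 3 measured microRNA hosts, 1 arm for each hairpin, and are shown because the hosts differ in how many seeds they deliver. The sequences and positions are from RefSeq, build GRCm38.p6, all on the plus strand, and capitals mark the seed (bases 2 to 8 from the 5′ end).
miR-155-5p from Mir155hg, chr16:84714143-84714165: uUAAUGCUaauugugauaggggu
miR-22-3p from Mir22hg, chr11:75463772-75463793: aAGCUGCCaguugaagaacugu
miR-17-5p from Mir17hg, chr14:115043684-115043706: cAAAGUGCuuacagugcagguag
miR-20a-5p from Mir17hg, chr14:115044183-115044205: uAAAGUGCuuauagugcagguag
miR-18a-5p from Mir17hg, chr14:115043867-115043889: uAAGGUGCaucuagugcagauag
miR-19a-3p from Mir17hg, chr14:115044048-115044070: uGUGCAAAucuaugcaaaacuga
miR-19b-3p from Mir17hg, chr14:115044358-115044380: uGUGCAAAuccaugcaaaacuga
miR-92a-3p from Mir17hg, chr14:115044476-115044496: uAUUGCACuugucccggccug
The 8 sequences carry 6 distinct seeds. Within the Mir17hg cluster, miR-17-5p shares its seed with miR-20a-5p, and miR-19a-3p shares its seed with miR-19b-3p.

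In the GENCODE annotation of GRCm38, Mir17hg (NCBI Gene 75957) lies on chromosome 14 from 115042879 to 115046727, Mir155hg (100653389) on chromosome 16 from 84703167 to 84715245 and Mir22hg (100042498) on chromosome 11 from 75461539 to 75466676, all on the plus strand and with their hairpins in exons. The length behind the FPKM values of Mir17hg, 2339 bases, equals that of its RefSeq record, which starts at 115044390 and holds 1 of the 6 hairpins whole, that of miR-92a. If reads were counted on that record, the Mir17hg count covers the transcript from the end of the cluster onward. The snoRNA hosts carry their snoRNAs in introns of at least 1 annotated transcript, 8 in Snhg1, 2 in Snhg3, 2 in Snhg5, 1 in Snhg8, 4 in Snhg12 and 9 in Gas5. On the plus strand lie Snhg1 (chromosome 19, 8723475 to 8726443), Snhg12 (chromosome 4, 132308623 to 132311024) and Gas5 (chromosome 1, 161034422 to 161038539). On the minus strand lie Snhg3 (chromosome 4, 132348014 to 132353686), Snhg5 (chromosome 9, 88521050 to 88522929) and Snhg8 (chromosome 3, 123507552 to 123508404).

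The levels of the hosts were compared per length with the deposited FPKM values (counts scaled to transcript length and to the total of the library). Gas5 was the most abundant host, at 146 ± 31.1 FPKM (SD, n = 3) in wt and 266 ± 46.8 in libraries labelled ko. Snhg1 followed at 60.8 ± 7.25 and 109 ± 28.8 FPKM, and Mir22hg, the most abundant microRNA host, at 31.0 ± 0.960 and 51.5 ± 12.2. Mir17hg, host of the miR-17-92 cluster that is known from proliferating cells, was the least abundant at 1.95 ± 0.356 and 6.06 ± 2.57 FPKM. In wt, the order Gas5, Snhg1, Mir22hg, Snhg8, Snhg3 was kept in every library. Snhg3, Snhg12, Snhg5 and Mir155hg, with wt means of 18.7, 17.7, 17.1 and 15.2 FPKM, could not be ordered beyond their spread, since each overlapped the next. Among all genes tested, the mean FPKM of Gas5 stood at the 97.5th percentile and that of Mir17hg at the 49.0th.

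**Figure D1:**
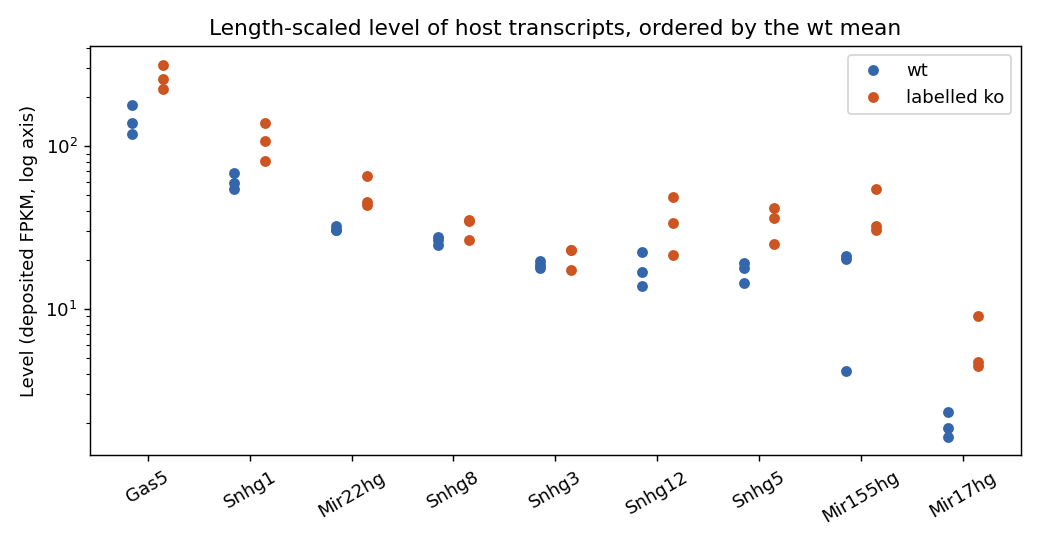
Deposited FPKM (vertical log axis) of each host transcript in the 3 wt and 3 labelled ko libraries, 1 dot per library, ordered from left to right by the wt mean. Gas5 lies highest, from 119 to 317 FPKM, and Mir17hg lowest, from 1.64 to 9.03.

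Most of the host transcripts were more abundant in the libraries labelled ko, and the microRNA hosts Mir17hg and Mir155hg showed the largest differences. In 6 of the 9, namely Mir17hg, Mir155hg, Mir22hg, Snhg1, Snhg5 and Gas5, every library labelled ko lay above every wt library after scaling by edgeR's TMM method. Among all 13884 genes tested this held for 13.3%, and the opposite held for 12.6% of genes and for 0 of the hosts. In the deposited FPKM values, which lack that scaling, the same 6 hosts separated, while the shares of all genes moved to 18.6% higher and 6.88% lower. At a threshold of 0.05 after Benjamini-Hochberg adjustment, edgeR's quasi-likelihood test called 0 of the 9 hosts and 0% of all genes, while 2112 genes (15.2%) passed 0.05 before adjustment. With DESeq2, 1 of the 9, Mir17hg, was called, as were 0.263% of genes. The hosts were chosen with this contrast known, so that nothing is read from these counts about hosts as a class.

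**Figure D2:**
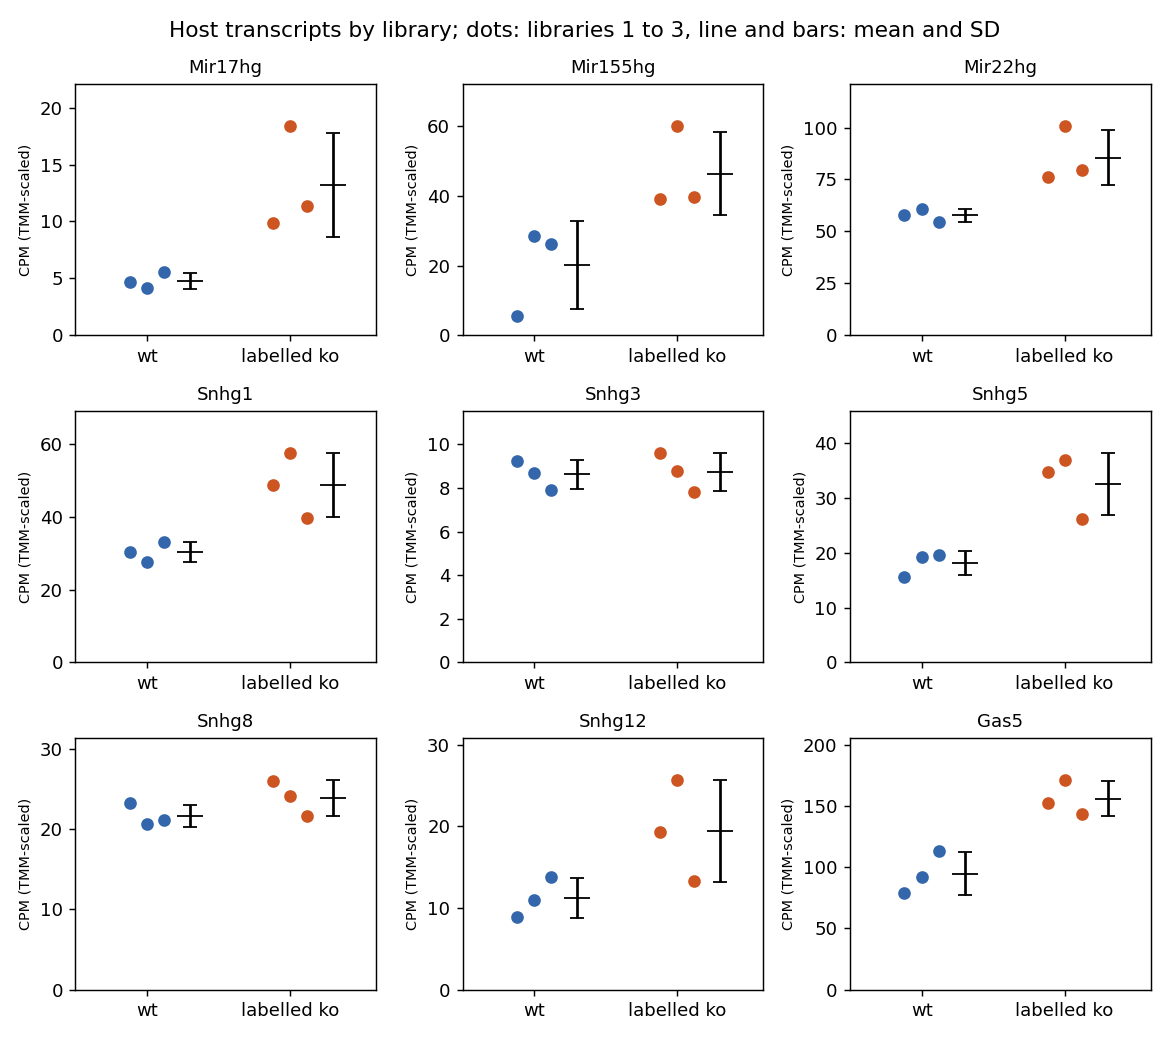
TMM-scaled CPM (vertical axis, from 0) of 9 host transcripts in the wt and labelled ko libraries, replicates 1 to 3 from left to right in each group, with the mean and SD beside them. In 6 panels the groups do not overlap, and in the panels of Snhg3, Snhg8 and Snhg12 they do.

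Mir17hg is the host of the miR-17-92 cluster, whose microRNAs are known to repress the pro-apoptotic gene Bcl2l11 and to favor proliferation. Its level was 4.67, 4.12 and 5.56 CPM in wt replicates 1, 2 and 3 and 9.89, 18.4 and 11.4 in the libraries labelled ko. The lowest library labelled ko was 1.78 times the highest wt library, the widest such gap among the hosts, and ko replicate 2 stood well above the other two. The log2 fold change was 1.47 (standard error 0.28), at the 97.8th percentile of all genes tested. Without ko replicate 2 it was 1.15. Myc, the transcription factor best known for driving this cluster, overlapped between the groups, at 166 ± 101 CPM (SD, n = 3) in wt and 343 ± 88.6 in libraries labelled ko (edgeR log2 fold change 1.05 ± 0.47 SE, adjusted p = 0.331). Without wt replicate 1 it was 0.64. Of the 5 tested genes in the list of Mir17hg regulators, 3 had a positive estimate, against 52.1% of all genes tested. Their median log2 fold change was 0.23. E2f2, also a target of the cluster, was lower in the libraries labelled ko without overlap, as were 12.6% of all genes tested. E2f2 had 57.5 ± 25.7 CPM in wt and 29.7 ± 6.16 in libraries labelled ko. Its log2 fold change was -0.95 (adjusted p = 0.328, edgeR), and -0.54 without wt replicate 1.

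Mir155hg, also known as Bic, encodes miR-155, which macrophages and lymphocytes induce on activation. Its level was 5.62, 28.5 and 26.1 CPM in wt replicates 1, 2 and 3 and 39.1, 60.1 and 39.8 in the libraries labelled ko. Wt replicate 1 was thus far below the other wt libraries, and the spread within wt, 62.6% of the mean, was the largest of any host. The log2 fold change was 1.21 (standard error 0.53) over all libraries and 0.76 without wt replicate 1. Leaving out the lowest wt library can hardly make the groups overlap, so their separation there adds nothing. In counts, the same library held 200 reads of Mir155hg against 1011 and 978 in the others. The summed T cell markers were 32.3, 39.7 and 118 CPM in wt replicates 1, 2 and 3. The summed fibroblast and proliferation markers were also lowest in wt replicate 1, at 44.4 and 217 CPM. The summed macrophage markers were highest there, at 21658 CPM. Whether any of these is linked to Mir155hg was not tested. Of 10 tested regulators, Ets2 and members of the NF-kB and AP-1 families, 3 had a positive estimate, against 52.1% of all genes tested. The most abundant, Fos and Junb, had log2 fold changes of -0.60 and -0.33 (adjusted p = 0.334 and 0.347, edgeR). Without wt replicate 1 these were -0.30 and -0.22. Fosl2, at -0.56 (adjusted p = 0.328, edgeR), was the 1 regulator lower without overlap, and 0 were higher. Among all genes tested, 12.6% were lower without overlap.

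Mir22hg encodes miR-22, a broadly expressed microRNA. Its level was 57.8, 60.7 and 54.5 CPM in wt and 76.3, 101 and 79.5 in the libraries labelled ko. The wt libraries had a coefficient of variation of 5.41%, the smallest of any host in wt, and the labelled ko libraries all lay above them. The log2 fold change was 0.57 (standard error 0.14). Mir22hg overlaps the protein-coding gene Tlcd2 on the same strand, so that reads of the shared bases could be assigned to either. Tlcd2 had 2.91 ± 0.604 CPM in wt and 4.11 ± 1.14 in libraries labelled ko, with overlap between the groups. Its log2 fold change was 0.50 (adjusted p = 0.400, edgeR), or 0.30 without ko replicate 2. The part of shared reads in either level was not tested.

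Gas5, the most abundant host, carries box C/D snoRNAs in its introns. Its level was 78.9, 92.2 and 113 CPM in wt and 153, 171 and 143 in the libraries labelled ko. The log2 fold change was 0.72 (standard error 0.16), or 0.60 without wt replicate 1, and the wt libraries differed among themselves more than those labelled ko, with coefficients of variation of 18.3% and 9.12%. Snhg5, host of Snord50a and Snord50b, was measured at 15.7, 19.3 and 19.6 CPM in wt and 34.7, 36.9 and 26.2 in the libraries labelled ko. Its log2 fold change of 0.84 (standard error 0.18) was the largest of the snoRNA hosts, with ko replicate 3 closest to the wt libraries.

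Snhg1, which carries Snord22 among its snoRNAs, was measured at 30.3, 27.7 and 33.2 CPM in wt and 48.9, 57.6 and 39.8 in the libraries labelled ko, with a log2 fold change of 0.68 (standard error 0.17). Snhg12, host of Snora16a, Snora44, Snora61 and Snord99, was measured at 8.94, 11.0 and 13.8 CPM in wt and 19.3, 25.7 and 13.3 in the libraries labelled ko. Its groups overlapped through ko replicate 3 alone, which was just under wt replicate 3. Its log2 fold change was 0.79 (standard error 0.28), and ran from 0.53 without ko replicate 2 to 0.99 without ko replicate 3.

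Snhg3 and Snhg8 differed from the other snoRNA hosts in showing little difference between the groups. Snhg3, host of Snora73a and Snora73b, was measured at 9.25, 8.71 and 7.91 CPM in wt and 9.59, 8.78 and 7.82 in the libraries labelled ko. The log2 fold change of 0.02 (standard error 0.19) changed sign with DESeq2 and without wt replicate 3 or ko replicate 1. Snhg8, host of Snora24, was measured at 23.2, 20.7 and 21.1 CPM in wt and 26.0, 24.2 and 21.6 in the libraries labelled ko, with a log2 fold change of 0.14 (standard error 0.14). Both hosts carry box H/ACA snoRNAs. So does Snhg12, with Snora16a, Snora44 and Snora61, and its log2 fold change was 0.79. The estimates of Snhg3 and Snhg8 do not show that their levels were the same in both groups.

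**Figure D3:**
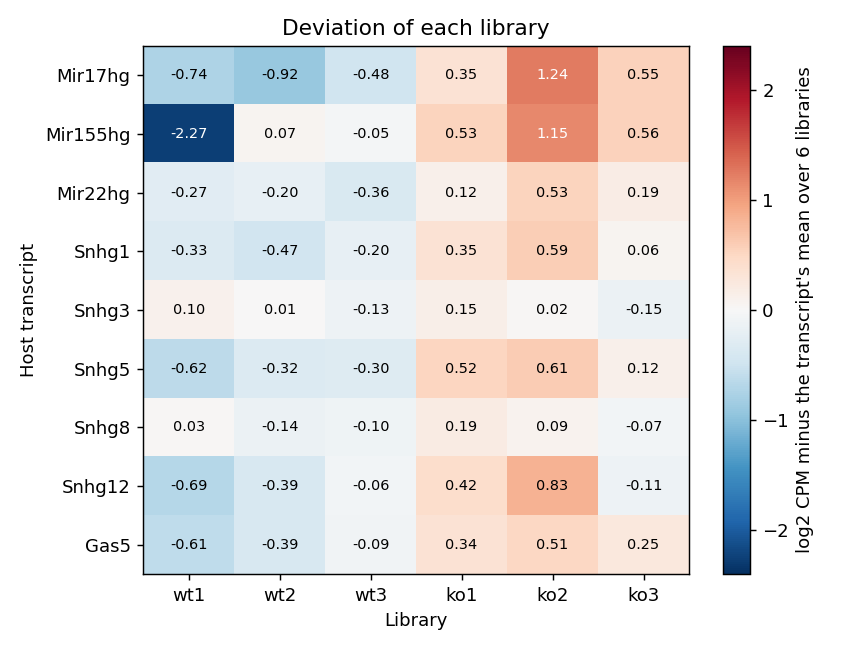
Deviation of each library (columns) from the mean log2 CPM of each host transcript over 6 libraries (rows), printed in each cell and colored red above and blue below the mean. Mir155hg in wt replicate 1 is the lowest cell at -2.27, and Mir17hg in ko replicate 2 is the highest at 1.24.

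Of the 9 hosts, 7 were highest in ko replicate 2 and the other 2, Snhg3 and Snhg8, in ko replicate 1. Across all genes tested, 25.1% were highest in ko replicate 2 and 14.1% in ko replicate 1. The hosts lowest in wt replicate 1 were 4, Mir155hg, Snhg5, Snhg12 and Gas5, in a library where 33.5% of all genes were lowest and 33.0% were highest. Another 3, Mir17hg, Snhg1 and Snhg8, were lowest in wt replicate 2, Mir22hg in wt replicate 3 and Snhg3 in ko replicate 3, so that the hosts shared no common lowest library. Other features moved with the same libraries. ko replicate 2 had the highest summed T cell markers (262 CPM) and the lowest summed macrophage markers (9742 CPM, against 12523 to 21658 in the others). The summed proliferation markers ran from 217 to 483 CPM in wt and from 497 to 697 in libraries labelled ko, with wt replicate 1 lowest and ko replicate 2 highest, and 6 of the 10 markers were higher without overlap (13.3% of all genes). Their median log2 fold change of 0.76 was 0.36 without wt replicate 1. The part of these markers in the levels of the hosts was not tested.

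**Figure D4:**
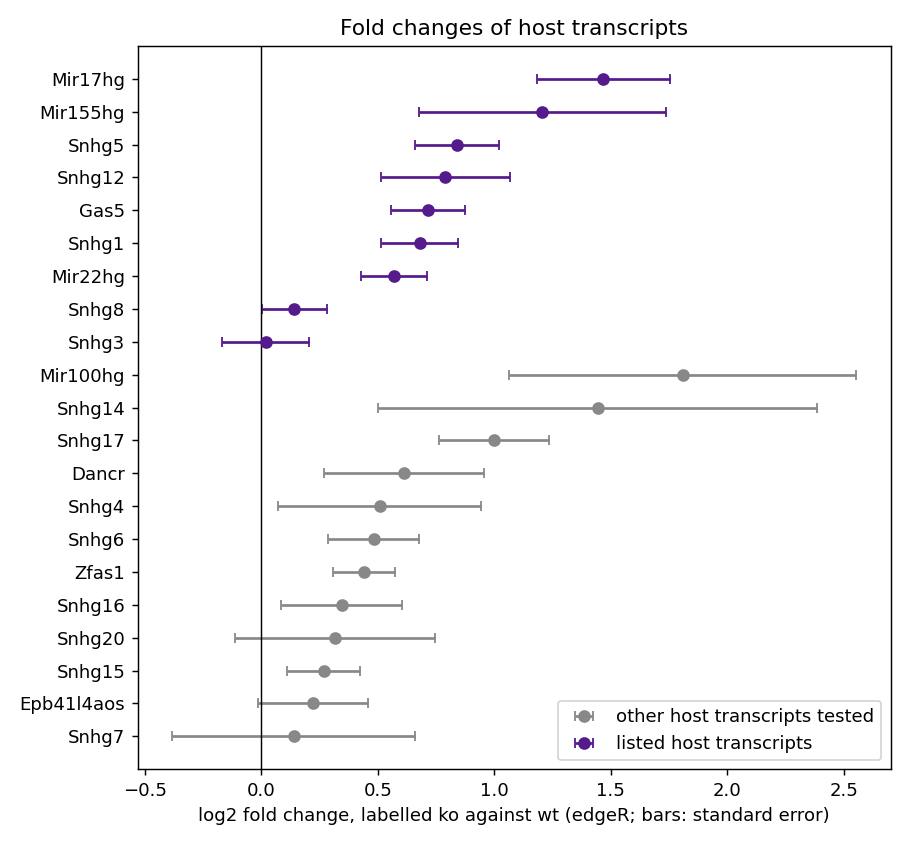
log2 fold change of the libraries labelled ko against wt (horizontal axis, edgeR) with its standard error as bars, for the 9 listed host transcripts and the 12 other host transcripts tested. The listed hosts run from 0.02 for Snhg3 to 1.47 for Mir17hg, and the other hosts from 0.14 for Snhg7 to 1.81 for Mir100hg.

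The other host transcripts of the table were taken by their names. Of 21 such ids, 12 passed the filter, and edgeR called 0 of them. All 12 had a positive estimate, against 52.1% of all genes tested. Their median log2 fold change was 0.46, against 0.02 for all genes tested and 0.72 for the 9 listed hosts. The filter needs enough reads in as many libraries as a group holds, so a rare host can pass through 1 group. Mir100hg and Snhg14, at 0.0844 and 0 CPM in wt replicate 1, passed only with libraries labelled ko. Snhg10, with 10, 5 and 11 counts in wt and 6, 4 and 1 in libraries labelled ko, did not pass. The shares of these 12 are thus no independent check on the listed hosts. Zfas1, a snoRNA host and the most abundant of these, was measured at 30.1, 31.5 and 34.7 CPM in wt and 45.7, 46.4 and 38.5 in the libraries labelled ko (edgeR log2 fold change 0.44 ± 0.13 SE, adjusted p = 0.328). Snhg15 was measured at 20.8 ± 2.54 and 25.1 ± 2.83 CPM (SD, n = 3), with a log2 fold change of 0.27. Mir100hg, host of a cluster with let-7 and miR-125 members, was low, at 0.0844, 1.30 and 1.10 CPM in wt and 2.93, 3.32 and 2.46 in the libraries labelled ko. wt replicate 1 was at 3 counts. The summed fibroblast markers, with Col3a1 the most abundant, were lowest in the same wt replicate 1, and their part was not tested. Dancr, Snhg6 and Snhg17, named here after their values were seen, were the remaining other hosts whose groups did not overlap, 6 of 12 in all, where 13.3% of all genes tested were higher without overlap.

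Genes next to the hosts were compared because a shared promoter or overlap can move neighbors together. Slc3a2, the heavy chain of an amino acid transporter, starts 106 bases from Snhg1 on the opposite strand. Its level was 346, 323 and 278 CPM in wt and 284, 313 and 276 in the libraries labelled ko, so that the groups overlapped while those of Snhg1 did not (edgeR log2 fold change -0.12 ± 0.13 SE, adjusted p = 0.608). In FPKM the sign of this estimate turned. Rcc1, the exchange factor of the Ran GTPase, overlaps Snhg3 on the same strand and starts 81 bases from it. Rcc1 had 20.6 ± 4.41 CPM in wt and 28.8 ± 6.49 in libraries labelled ko (log2 fold change 0.49, adjusted p = 0.333, and 0.32 without wt replicate 1), against 0.02 for Snhg3, and how reads in the shared bases were divided is not stated in the sources used here. Zbtb37 overlaps the start of Gas5 on the opposite strand and had 8.17 ± 4.47 and 9.25 ± 0.193 CPM (log2 fold change 0.18, adjusted p = 0.785), with an estimate that changed sign without wt replicate 1 or 2. The counting is not stated to use strand.

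Proteins that assemble with the snoRNAs were next. In the box C/D group, 10 of 12 tested genes had a positive estimate and the median log2 fold change was 0.27. In the box H/ACA group these values were 6 of 7 and 0.37, and over all genes tested 52.1% and 0.02. Nop56, a core box C/D protein, was measured at 64.8, 79.9 and 72.2 CPM in wt and 131, 160 and 99.4 in the libraries labelled ko (edgeR log2 fold change 0.85 ± 0.19 SE, adjusted p = 0.328). Its partner Nop58 had a log2 fold change of 0.94, or 0.61 without wt replicate 1, and the methyltransferase Fbl, which acts in the same particle, 0.16. Dkc1, the pseudouridine synthase of the box H/ACA particle, had 6.16, 24.8 and 21.7 CPM in wt and 33.9, 34.3 and 25.8 in the libraries labelled ko, with wt replicate 1 again far below the rest. Its log2 fold change of 0.84 was 0.43 without that library. edgeR called 0 genes in either group, and 3 and 2 were under 0.05 before adjustment, as were 15.2% of all genes tested.

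The ribosomal proteins, which share the terminal oligopyrimidine class with several hosts, showed smaller differences. Of 84 tested, 65 had a positive estimate, with a median log2 fold change of 0.07 and a range from -0.54 for Rpl3l to 0.36 for Rpl12. In 32.1% of them every library labelled ko was above every wt library, against 13.3% of all genes tested. Among 17 factors of nonsense-mediated decay, 13 had a positive estimate with a median of 0.09, and Upf3b (0.73) and Upf2 (0.59) had the largest values, which were 0.42 and 0.38 without wt replicate 1. Over all genes tested, 52.1% had a positive estimate. edgeR called 0 genes in these lists too, with 2 ribosomal proteins and 0 decay factors under 0.05 before adjustment, against 15.2% of all genes tested.

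**Figure D5:**
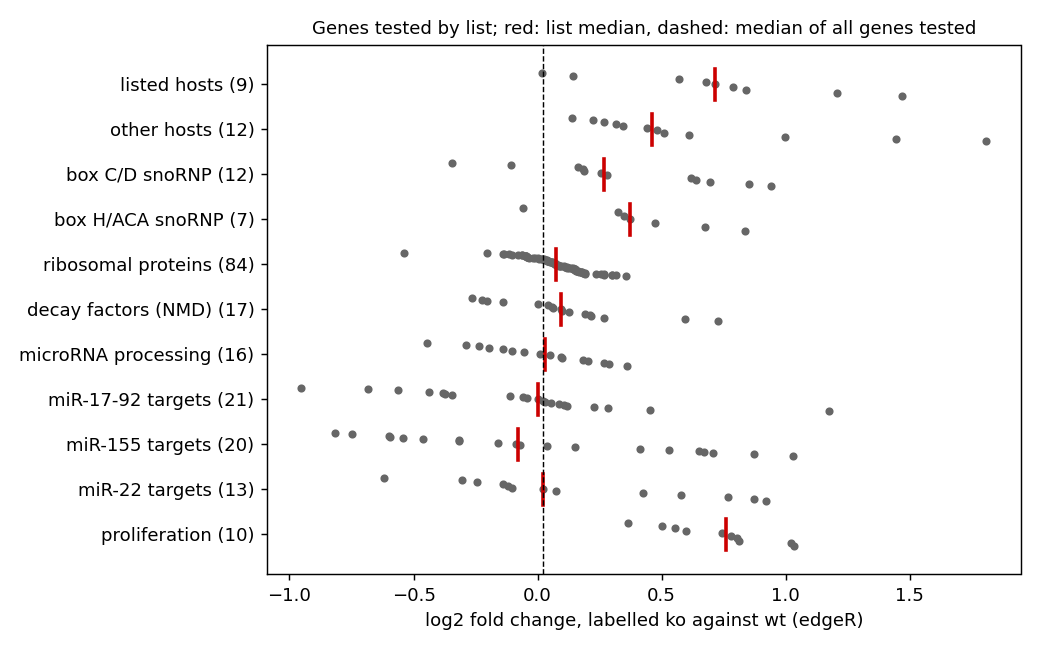
log2 fold change of the libraries labelled ko against wt (horizontal axis, edgeR) for every tested gene of 11 groups, 1 dot per gene, with the number of genes in brackets, a red line at the median of the group and a dashed line at the median of all genes tested, 0.02. The medians are 0.72 for the listed hosts, 0.76 for proliferation and 0.07 for ribosomal proteins, and the 3 groups of microRNA targets have medians from -0.08 to 0.02.

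On the microRNA side, the 16 tested genes of microRNA processing had a median log2 fold change of 0.03, and 9 of them were positive. Drosha, which makes the first cut, was measured at 25.3 ± 3.03 CPM in wt and 32.5 ± 2.96 in libraries labelled ko (SD, n = 3) (edgeR log2 fold change 0.36, adjusted p = 0.328). For Ago4 the estimate was -0.45 (adjusted p = 0.361). Textbook targets of the microRNAs had estimates in both directions. Without overlap between the groups, 2 of 20 tested miR-155 targets were higher and 6 lower in the libraries labelled ko. Cebpb was among those 6, while Trp53inp1 overlapped. These numbers were 0 and 3 of 21 for miR-17-92 and 3 and 1 of 13 for miR-22. Among all genes tested, 13.3% were higher and 12.6% lower without overlap, and 52.1% had a positive estimate. The 6 lower miR-155 targets were Inpp5d, Bach1, Cebpb, Spi1, Tspan14 and Bcl6. All 12 macrophage and all 8 neutrophil markers also had lower estimates in these libraries. The part of cell content or of miR-155 in these targets was not tested. The median log2 fold change was -0.08 for 20 targets of miR-155, of which 9 were positive, 0.00 for 21 targets of the miR-17-92 cluster, of which 11 were positive, and 0.02 for 13 targets of miR-22, of which 7 were positive. Among miR-155 targets, Cebpb, a transcription factor of inflammatory macrophages, had 1346 ± 371 CPM in wt and 764 ± 230 in libraries labelled ko (log2 fold change -0.82, adjusted p = 0.328), and Trp53inp1 had 27.6 ± 15.7 and 56.2 ± 25.5 CPM (1.03, adjusted p = 0.328, and 0.58 without ko replicate 2). Cebpb and Spi1 also appear in the list of Mir142hg regulators, where 0 of 4 tested genes were positive, but the host itself was not analysed here.

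The hosts were also compared by the shape of their levels over the 6 libraries, as the root mean square difference between log2 CPM profiles, each centered on its own mean. Gas5 and Snhg5 were nearest to each other among the hosts, at 0.14, and Snhg3 and Snhg8 were nearest to each other at 0.08. For Mir155hg the nearest host was Snhg12 at 0.73, where the median over all genes was 1.10. Among all genes tested the profile most like that of Gas5 was that of Eif5, a translation initiation factor (0.06), followed by Togaram1, and for Snhg1 those were Zfp24 (0.07) and Hivep2. The 2 profiles most like that of Mir155hg were Atp6v0e2 (0.10) and Shcbp1 (0.11), and for Mir17hg they were 4932438H23Rik and Fgf13, both below 1 CPM on average in each group. For Gas5, the median difference over all genes was 0.51. With 6 libraries these likenesses are a description only.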

How the data were processed

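RNA sequencing libraries of 3 wt and 3 labelled ko samples were analysed, grouped by their titles. The deposited tables hold raw read counts for each gene and library. The deposited FPKM values are the same counts scaled by a fixed gene length and by library total, as checked from the values. The submitters' processing notes give the build mm10. The aligner, the counting tool and the annotation are not given in the sources used here. Coordinates are from GENCODE M21 (GRCm38), matched by symbol.

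Counts were fitted with edgeR 4.0.16 in R 4.3.3 (filterByExpr, TMM, glmQLFit, glmQLFTest) over all 13884 genes tested, with Benjamini-Hochberg adjustment and a threshold of 0.05. The standard error of a log2 fold change was derived from its F statistic. CPM are TMM-scaled. DESeq2 1.42.0 and limma 3.58.1 on log2 FPKM plus 1 or 0.1, a replicate block, other scalings and filters and each library left out were alternatives. The fit was tested on simulated data. The labels call the samples replicate biosamples, nothing in them names an animal, and p-values measure only the spread between these libraries, which may be technical.

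The hosts and gene lists were chosen with earlier results of these data known. Named genes were drawn mainly from the hosts, Npm1, neighbors within 2000 bases and the 2 most like profiles per host. From each list they were drawn from the 2 most abundant genes and the 2 with the largest fold change. Not all of these were named, and some genes outside this rule were, such as Snhg7, Dancr and Acta2.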

Additional observations from a re-analysis of the deposited data

How the results depend on the processing

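All 9 hosts kept the direction of their estimate in each alternative, except Snhg3, whose log2 fold change was -0.0050 with DESeq2 and ran from -0.057 to 0.086 over the fits that left out 1 library (-0.056 without ko replicate 1). Of 30 other genes examined beside the hosts, 3 changed sign. Slc3a2 was at 0.036 in both FPKM fits, Zbtb37 ran from -0.066 to 0.71 with 1 library left out (-0.0072 without wt replicate 1), and Snhg7 from -0.14 to 0.52 (-0.080 without ko replicate 2). Leaving out some library moved 19 of the 30 by over 1.5 times. The genes called numbered 0 in each edgeR and limma fit and 36 with DESeq2, which called Mir17hg (log2 fold change 1.45). The cause was not tested. With each library left out, the median log2 fold change of the microRNA hosts ran from 0.76, without wt replicate 1, to 1.42. The genes whose groups did not overlap numbered 1842 higher and 1751 lower. They ran from 2099 to 3846 higher and from 2050 to 3251 lower with 1 library left out, since fewer libraries must then be ordered, and of the hosts 6 to 8 separated. In FPKM, which lack the TMM scaling, 955 genes were lower. FPKM plus 0.1 moved the median of all genes by 0.14. The replicate numbers are not stated to pair the libraries. Deviations of wt and labelled ko libraries with the same number correlated at -0.241, 0.0605 and -0.337, which cannot show whether they were paired. A replicate block gave 0 calls, and the median of the microRNA hosts was 1.42. The replicate pairs with wt replicate 1 differed by a chi-square per gene of 115 and 146, against 47.3 for the other wt pair.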
